A study of Mus musculus with 12 samples.

Results

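The genes described here encode the mouse major histocompatibility complex (MHC) molecules and the proteins that load antigen onto them. All non-control probes named H2- on the array were taken, with those for B2m, Tap1, Tap2, Tapbp, Cd74, Ciita, Nlrc5, Erap1, Cd1d1 and Calr. This gave 51 of the array's 34844 gene names, read by 67 of 55681 probes. Of the names, 41 begin with H2- (55 probes) and 10 do not (12 probes). By role they were 3 probes for class I heavy chains, 35 for class Ib genes, 6 for class I partners and loading factors, 6 for class II chains, 8 for class II loading factors, 3 for transactivators, 2 for Cd1d1 and 4 for other genes carrying an H2-K name. RNA was measured on 12 Agilent 1-colour arrays in 4 groups of 3. RAW264.7, a mouse macrophage-like line, carried either PLKO, the control vector, or an shRNA against Abhd5 (ABHD5-KD), the gene of a co-activator of triglyceride breakdown. CT-26, a mouse colon carcinoma line, had been primed by the control or by the ABHD5-KD RAW264.7 cells. The labels name no selection, clone, time or way of priming, and leave unsaid if RAW264.7 cells were removed from the CT-26 samples before extraction. Nor do they state separate cultures for the 3 samples per group, so the p-values measure the spread between these samples only.

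Class I molecules are carried by most cell types and show peptides from the cell's own proteins to CD8 T cells. A heavy chain, such as the product of H2-K1 or H2-D1, pairs with beta-2 microglobulin, and its peptide comes through the Tap1 and Tap2 transporter with the help of tapasin and calreticulin. Class II molecules pair an alpha and a beta chain, are carried mainly by macrophages, dendritic cells and B cells, and show peptides from engulfed material to CD4 T cells. The invariant chain, Cd74, guards their groove until H2-DM exchanges its last fragment for peptide, and H2-O restrains H2-DM. Ciita is the master regulator of class II genes and Nlrc5 its counterpart for class I. Class II promoters carry a shared array of short elements, of which the Y box, an inverted CCAAT, is bound by NF-Y.

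Levels are given as the log2 processed signal minus the array's 75th percentile, so they compare arrays for 1 probe and not 1 probe with another. Abhd5 stood at 1.61 ± 0.28 (SD, n = 3) in control and 0.29 ± 0.09 (SD, n = 3) in knockdown RAW264.7 cells, a drop of 1.32 ± 0.20 (SE, adjusted p = 0.00402 by limma), while CT-26 groups differed by 0.07 ± 0.16 (SE, adjusted p = 0.781). All 12 listed macrophage markers were well above background on every RAW264.7 array, with a summed log2 level of 8.19 to 8.46, or 7.85 to 8.16 without Itgam, a split chosen after seeing the values. In CT-26 cells, 9 to 11 of the 12 were above background, with a summed level of 5.79 to 6.23 that lay mostly in Itgam (5.51 to 6.07) and was 2.97 to 3.37 over the other 11. All 12 were higher in control RAW264.7 than in control-primed CT-26 cells, with a median difference of 6.56, and Adgre1 was above background on 0 of 6 CT-26 arrays. Of 10 epithelial markers, 6 to 8 were above background in CT-26 cells, with a summed level of 4.72 to 5.20. In RAW264.7 cells 2 to 9 were above background on control and 7 to 8 on knockdown arrays, with summed levels of 0.43 to 0.94 and 0.04 to 0.15. Of 6 tested between the control groups 3 were lower in RAW264.7 cells (Krt18, Krt19 and Krt20) and 3 were not called (Krt8, Cldn4 and Cldn7). Epcam and Vil1 were above background on 3 RAW264.7 knockdown arrays. In CT-26 cells Epcam was above it on 1 control-primed and 0 knockdown-primed arrays, and Vil1 on 0 of either. Cdh1 was above background on 0 and Cdx2 on 2 of the 6 CT-26 arrays. Both lines derive from BALB/c mice. The slides divided the groups unevenly. Control replicates 1 and 2 of RAW264.7 were on slide 1, control replicate 3 and all knockdown replicates on slide 2, and the CT-26 arrays on slide 3. The share of spots well above background was 56.5% and 57.9% on slide 1, 69 to 73% on slide 2 and 59.3 to 77.3% on slide 3.

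H2 genes resemble each other, so the probe letters bear on what each signal can mean. Of 40 probes for 29 class I and class I-like genes, 6 probes of 6 genes shared a run of at least 20 of their 60 bases with a probe of another gene, in 3 pairs. The pair with the longest shared run, 29 bases, is shown because it includes the brightest H2-K1 probe (chr17:34133984-34134043, mm9). Its partner reads H2-T23, the gene of the class Ib molecule Qa-1 (chr17:36167338-36167574, mm9). Capitals mark the shared run.
H2-K1: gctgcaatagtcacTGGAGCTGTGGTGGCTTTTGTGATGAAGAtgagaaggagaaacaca
H2-T23: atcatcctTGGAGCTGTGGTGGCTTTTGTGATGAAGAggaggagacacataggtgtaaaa
The other pairs were H2-Q7 with H2-K2, at 28 bases, and H2-Q10 with H2-T3, at 22 bases. How far each of these probes reads the RNA of the other gene was not tested.

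H2-Ab1, the class II A beta chain, has a pair of probes that overlap by 51 bases with an offset of 9 and 1 mismatch in the overlap (first probe chr17:34406296-34406355, second probe chr17:34406305-34406363, mm9). The mismatch is T51C, numbered from 1 at the 5′ end of the first probe. The 30 bases around it are shown because the probes gave the same change in RAW264.7 cells but unlike differences between the cell lines. The capital marks the base that differs.
H2-Ab1 first: agattacaaataaacgagacTcagactctg
H2-Ab1 second: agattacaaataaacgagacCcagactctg
Every Ciita level rests on 1 probe of low complexity, with 90% of its bases A or C.

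RefSeq promoter windows, from 250 bases before to 50 after the start (GRCm38.p6), were found for 35 of the 51 genes. The Y box core GATTGG, searched on both strands, was in 16.1% of all 32851 promoters. It was in 8 of 9 windows of class II chain and loading genes, with at least 1 window for each of the 8 genes, and in 16 of 22 windows of class I and class Ib genes. In each of the 8 class II genes the core read GATTGG in the direction of the gene, with a further match on the opposite strand in H2-Eb1. In the class I and class Ib windows every match was on the opposite strand, a direct CCAAT and not the inverted one of the Y box. Stretches of 6 windows are printed with the core in capitals, since these genes moved in opposite directions in the RAW264.7 comparison. The first 4 belong to genes that rose and the last pair to genes that fell.
H2-Aa (chr17:34287859-34287917, minus strand): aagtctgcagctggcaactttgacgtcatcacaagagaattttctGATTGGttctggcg
H2-Eb1 (chr17:34305762-34305820, plus strand): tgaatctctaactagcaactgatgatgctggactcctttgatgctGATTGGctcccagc
H2-DMb1 (chr17:34153084-34153142, plus strand): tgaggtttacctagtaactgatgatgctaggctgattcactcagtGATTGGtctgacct
H2-DMb2 (chr17:34145113-34145171, plus strand): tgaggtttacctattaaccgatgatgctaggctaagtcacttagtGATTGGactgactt
H2-Oa (chr17:34092290-34092348, plus strand): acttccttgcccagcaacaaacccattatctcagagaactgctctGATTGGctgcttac
H2-Ob (chr17:34238802-34238860, plus strand): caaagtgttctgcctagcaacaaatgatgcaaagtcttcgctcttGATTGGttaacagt
Counted from the start site, the first base of the core lay at -49 in H2-Aa, -60 in H2-Eb1, -62 in H2-DMb1, -91 in H2-DMb2, -44 in H2-Oa and -58 in H2-Ob. The windows that rose and those that fell thus both hold the core. The gamma-activated site TTCNNNGAA was in 8.3% of all promoters and in 1 of the 9, and the kB-like site GGGNNTTCC in 5.82% of all promoters, 2 of the 9 and 7 of the 22 class I windows. Each motif was searched on both strands, and a match is only a match of letters.

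The first comparison asks what differs between ABHD5-KD and control cells of the macrophage line. In RAW264.7 cells the class II genes split. H2-Eb1 rose 4.48-fold and H2-Aa, H2-DMb1 and H2-DMb2 rose as well, while H2-Ab1, H2-Oa and H2-Ob fell. H2-Aa, H2-DMb1 and H2-DMb2 were above background on 1 of 3 control arrays and entered the test through the knockdown arrays, so their size is uncertain: their log2 changes of 2.73, 2.94 and 3.26 were 0.86, 1.49 and 1.49 with normexp background correction. Class I heavy chains, beta-2 microglobulin, Cd74, Ciita and Nlrc5 did not pass the test. Of 67 probes 51 were bright enough to test, and 5 were higher and 9 lower in knockdown cells (limma, adjusted p below 0.05). That is 9.8% higher and 17.6% lower, against 7.92% and 13.1% of all 37114 probes tested, or 27.5% against 21% in both directions. Within slide 2, 7 of 59 probes were called (11.9%, against 4.78% of all probes), and with slide as a block 5 of 51 (9.8%, against 4.17%). Among probes well above background on every array compared, 12 of 46 were called (26.1%, against 29.1% of all such probes), 2 higher and 10 lower. The median change of the 51 was -0.12 and that of all probes -0.285. At an unadjusted p below 0.05 there were 7 higher and 10 lower.

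H2-Aa, the class II A alpha chain (chr17:34421285-34421344, mm9), stood at -7.1, -6.87 and -6.43 in control replicates 1 to 3 and at -3.61, -3.98 and -4.63 in knockdown replicates 1 to 3. All knockdown arrays lay above all control arrays, and of the control arrays only replicate 3, the one on slide 2, was well above background. The change was 2.73 ± 0.30 on the log2 scale (SE, adjusted p = 0.000669). H2-Eb1, the class II E beta chain (chr17:34453075-34453134, mm9), stood at -2.08, -1.98 and -2.04 in control and at 0.59, 0.15 and -0.34 in knockdown arrays. All 6 arrays were above background and the groups did not overlap. H2-Eb1 rose by 2.17 ± 0.25 (SE, adjusted p = 0.000905), a fold of 4.48.

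H2-Ab1, whose product pairs with that of H2-Aa, went the other way. It stood at 1.03, 1.48 and 0.94 in control arrays and at 0.1, -0.29 and -0.51 in knockdown arrays, without overlap. The fall was -1.38 ± 0.24 (SE, adjusted p = 0.00668) for this probe and -1.31 ± 0.22 (SE, adjusted p = 0.00642) for the second probe, shown above. The partner chains of 1 heterodimer thus differed in direction. H2-Eb2 and H2-Ea-ps were not above background on all 3 arrays of any group and were not tested.

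The genes of H2-DM, which exchanges peptide on class II, rose in their beta chains. H2-DMb1 (chr17:34297109-34297168, mm9) stood at -6.0, -5.41 and -5.91 in control and at -2.75, -2.87 and -2.87 in knockdown arrays. H2-DMb2 (chr17:34284764-34284823, mm9) stood at -7.05, -6.14 and -5.72 in control and at -3.18, -2.9 and -3.06 in knockdown arrays. For both genes the knockdown arrays sat close together and far above the controls, of which only replicate 3 was well above background. The changes were 2.94 ± 0.21 for H2-DMb1 (SE, adjusted p = 7.5e-05) and 3.26 ± 0.32 for H2-DMb2 (SE, adjusted p = 0.000394). H2-DMa, the alpha chain of the same molecule, stood at 0.35, -0.76 and 0.42 in control and at 0.86, 0.93 and 0.61 in knockdown arrays. The groups did not overlap, but control replicate 2 lay apart and the difference of 0.80 ± 0.32 (SE, 95% interval 0.08 to 1.52) had an adjusted p of 0.092, and of 0.0494 at 0.79 with normexp background correction.

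The genes of H2-O, the inhibitor of H2-DM, were lower in knockdown cells. H2-Oa stood at 1.5, 1.22 and 1.83 in control and at 0.64, 0.41 and -0.32 in knockdown arrays. H2-Ob stood at -1.65, -1.34 and -2.12 in control and at -2.46, -2.62 and -2.74 in knockdown arrays. Neither gene overlapped between the groups, and all these arrays were above background. The changes were -1.27 ± 0.28 for H2-Oa (SE, adjusted p = 0.0196) and -0.90 ± 0.23 for H2-Ob (SE, adjusted p = 0.0312). Another H2-Ob probe changed by -1.78 ± 0.32 (SE, adjusted p = 0.00872), and another was too dim to test. The H2-Oa call was lost without control replicate 1 (-1.28, adjusted p = 0.0561), knockdown replicate 2 (-1.35, adjusted p = 0.0543) or knockdown replicate 3 (-0.99, adjusted p = 0.0742), and under median centring (-1.05, adjusted p = 0.0778). The H2-Ob call was lost without control replicate 1 (-0.88, adjusted p = 0.0763) or any knockdown replicate (-0.97 to -0.84, adjusted p = 0.0679 to 0.127), and under median centring (-0.68, adjusted p = 0.0533). Cd74, the invariant chain, stood at 4.9, 5.07 and 5.03 in control and at 4.57, 4.84 and 4.8 in knockdown arrays. Its knockdown arrays were all lower, but the difference of -0.26 ± 0.18 (SE, 95% interval -0.67 to 0.15) had an adjusted p of 0.283.

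**Figure D1:**
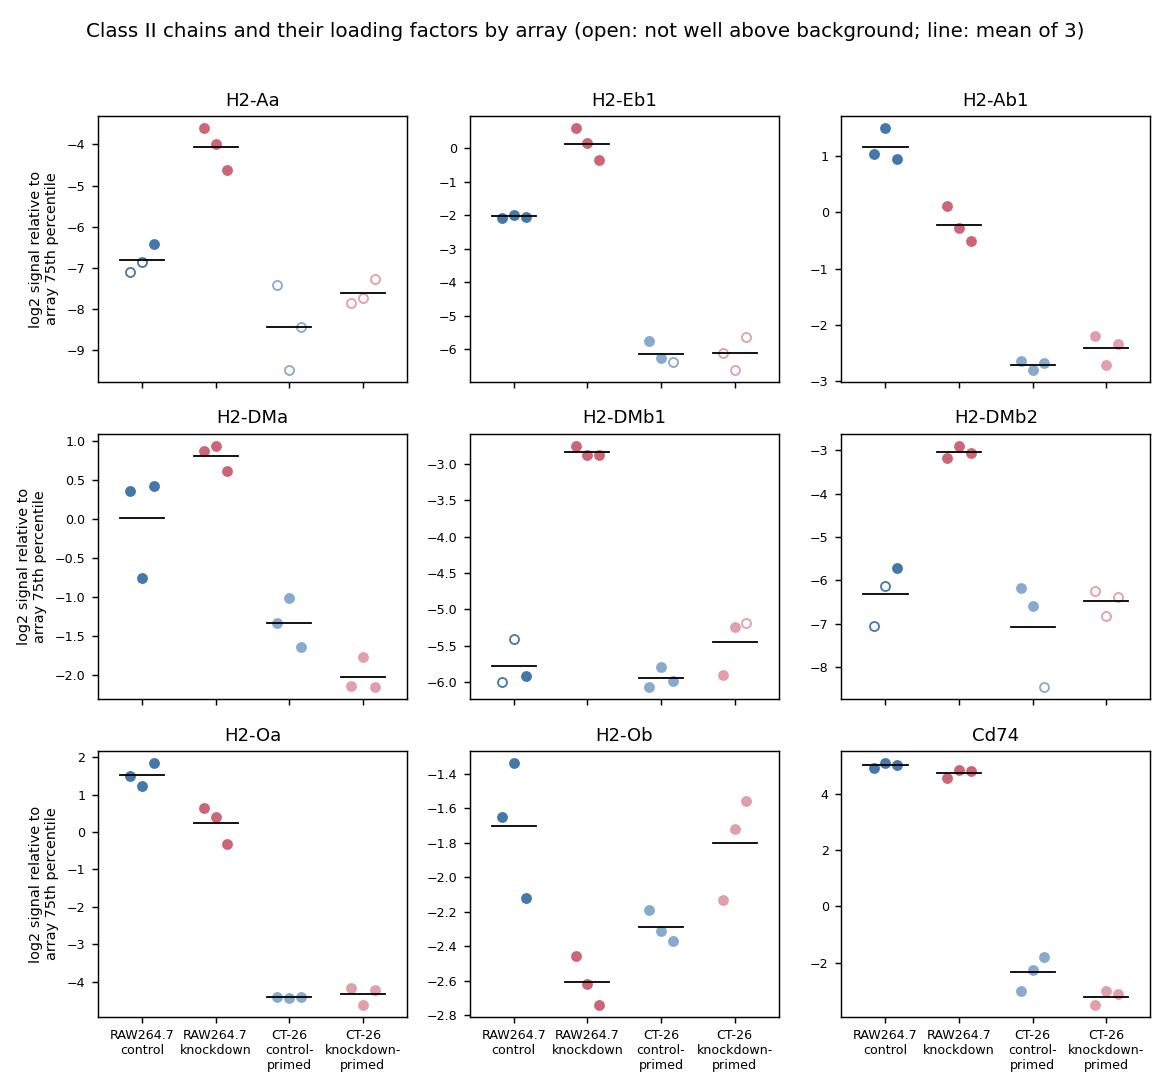
Level of each class II chain and loading factor on the 12 arrays (log2 signal relative to the array's 75th percentile, each panel with its own scale), by group, with the group mean as a line and open points for arrays not well above background. In RAW264.7 cells H2-Aa, H2-Eb1, H2-DMb1 and H2-DMb2 are higher after knockdown and H2-Ab1, H2-Oa and H2-Ob lower, while Cd74 changed by -0.26.

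Slide and group were partly shared, and not all of these calls held within slide 2, where 1 control array faces 3 knockdown arrays and the spread comes from the knockdown arrays alone. There H2-DMb1 changed by 3.07 (adjusted p = 0.0033), H2-DMb2 by 2.67 (adjusted p = 0.00567), H2-Aa by 2.36 (adjusted p = 0.0479) and H2-Eb1 by 2.17 (adjusted p = 0.0473). The same values with slide as a block had adjusted p of 0.000939, 0.00514, 0.0128 and 0.0135. H2-Ab1 changed by -1.17 within the slide, H2-Oa by -1.58 and H2-Ob by -0.49, with adjusted p of 0.0946, 0.102 and 0.198, and of 0.108, 0.066 and 0.387 with slide as a block. So the 4 genes that rose kept their calls and the 3 that fell kept their direction only. With normexp background correction the rise of H2-Eb1 was 1.94, and it and the smaller rises of H2-Aa, H2-DMb1 and H2-DMb2 were still past the threshold.

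**Figure D2:**
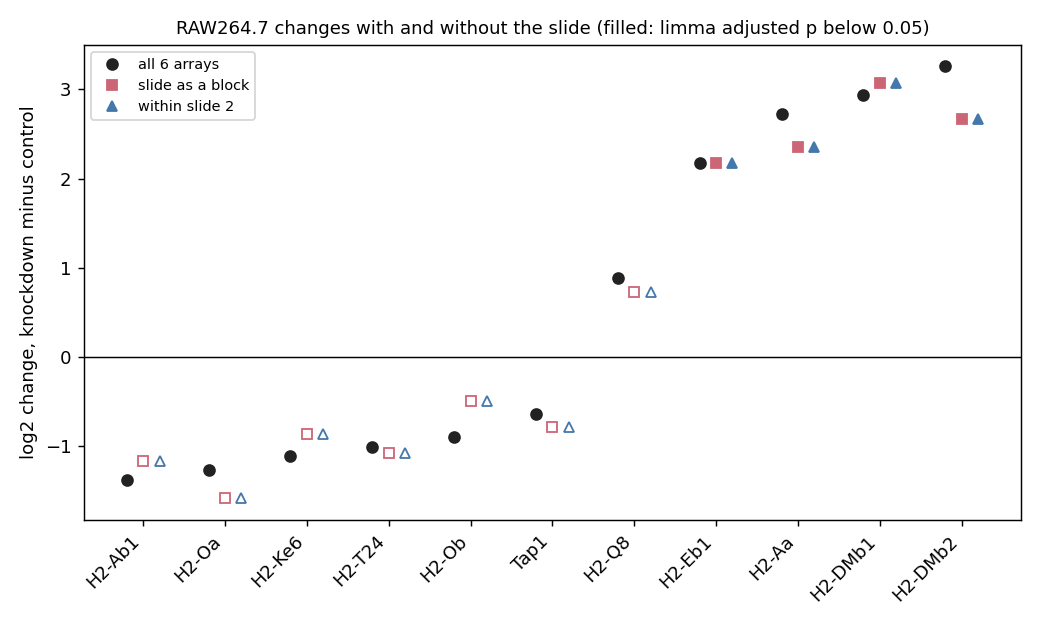
Change in RAW264.7 cells (log2, knockdown minus control) of the 11 genes whose brightest probe passed the test, from all 6 arrays, with slide as a block and within slide 2. Points are filled where the adjusted p was below 0.05. H2-Eb1, H2-Aa, H2-DMb1 and H2-DMb2 stay filled in all 3 settings, and the other genes keep their sign only.

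Class I heavy chains did not pass the test in RAW264.7 cells. H2-K1 stood at 4.37, 4.39 and 4.53 in control and at 4.47, 4.63 and 4.6 in knockdown arrays, which overlap. H2-D1 stood at 4.25, 4.06 and 4.43 in control and at 4.31, 4.44 and 4.34 in knockdown arrays, which overlap too. The differences were 0.14 ± 0.17 for H2-K1 (SE, 95% interval -0.26 to 0.53, adjusted p = 0.557) and 0.11 ± 0.18 for H2-D1 (SE, 95% interval -0.30 to 0.53, adjusted p = 0.648). The second H2-K1 probe differed by 0.14 as well. The brightest H2-K1 probe passed with quantile normalisation, at 0.55 (adjusted p = 0.0443). B2m, the partner of every class I heavy chain, stood at 5.13, 4.76 and 5.28 in control and at 4.9, 4.97 and 4.85 in knockdown arrays. Its difference was -0.15 ± 0.20 (SE, 95% interval -0.60 to 0.30, adjusted p = 0.58).

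Tap1, a subunit of the peptide transporter (chr17:34330854-34330913, mm9), was the 1 class I loading factor called. It stood at 0.11, 0.41 and 0.47 in control and at -0.25, -0.19 and -0.49 in knockdown arrays. The groups did not overlap, and Tap1 fell by 0.64 ± 0.19 (SE, adjusted p = 0.0475). The call was lost within slide 2, at -0.78 (adjusted p = 0.114), and on leaving out any 1 of the 6 arrays (adjusted p up to 0.184). Its partner Tap2 differed by 0.20 ± 0.22, tapasin (Tapbp) by -0.27 ± 0.18 and calreticulin (Calr) by -0.05 ± 0.28. Erap1, the peptidase that trims class I peptides, differed by 0.80 ± 0.26 (SE, adjusted p = 0.0595). It was above background on 1 control array and 3 knockdown arrays.

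Of 35 class Ib probes, 22 could be tested in RAW264.7 cells, 1 was higher (4.55%, against 7.92% of all probes) and 2 were lower (9.09%, against 13.1%). H2-Q8, a gene of the Q region (chr17:35532392-35532451, mm9), stood at 0.64, 0.68 and 0.89 in control and at 1.45, 1.44 and 1.99 in knockdown arrays. H2-T24, a gene of the T region (chr17:36142640-36142699, mm9), stood at 1.26, 1.74 and 1.6 in control and at 0.3, 0.56 and 0.68 in knockdown arrays. Neither overlapped between the groups. H2-Q8 rose by 0.89 ± 0.21 (SE, adjusted p = 0.0252) and H2-T24 fell by 1.01 ± 0.21 (SE, adjusted p = 0.0142). The second H2-T24 probe fell by 1.93 ± 0.20 (SE, adjusted p = 0.000477), and this was the 1 fall that held within slide 2, at -2.15 (adjusted p = 0.0111), and with slide as a block (adjusted p = 0.00303). H2-Q8 was 0.73 within slide 2 (adjusted p = 0.185) and the brighter H2-T24 probe -1.08 (adjusted p = 0.0713). The H2-Q8 call was also lost without control replicate 1 (0.84, adjusted p = 0.0703) or any knockdown replicate (0.71 to 0.98, adjusted p = 0.0519 to 0.118), and that of the brighter H2-T24 probe without knockdown replicate 1 (-0.91, adjusted p = 0.054) or 2 (-1.04, adjusted p = 0.0575). The 19 class Ib probes tested and not called ranged from -0.67 to 0.29.

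**Figure D3:**
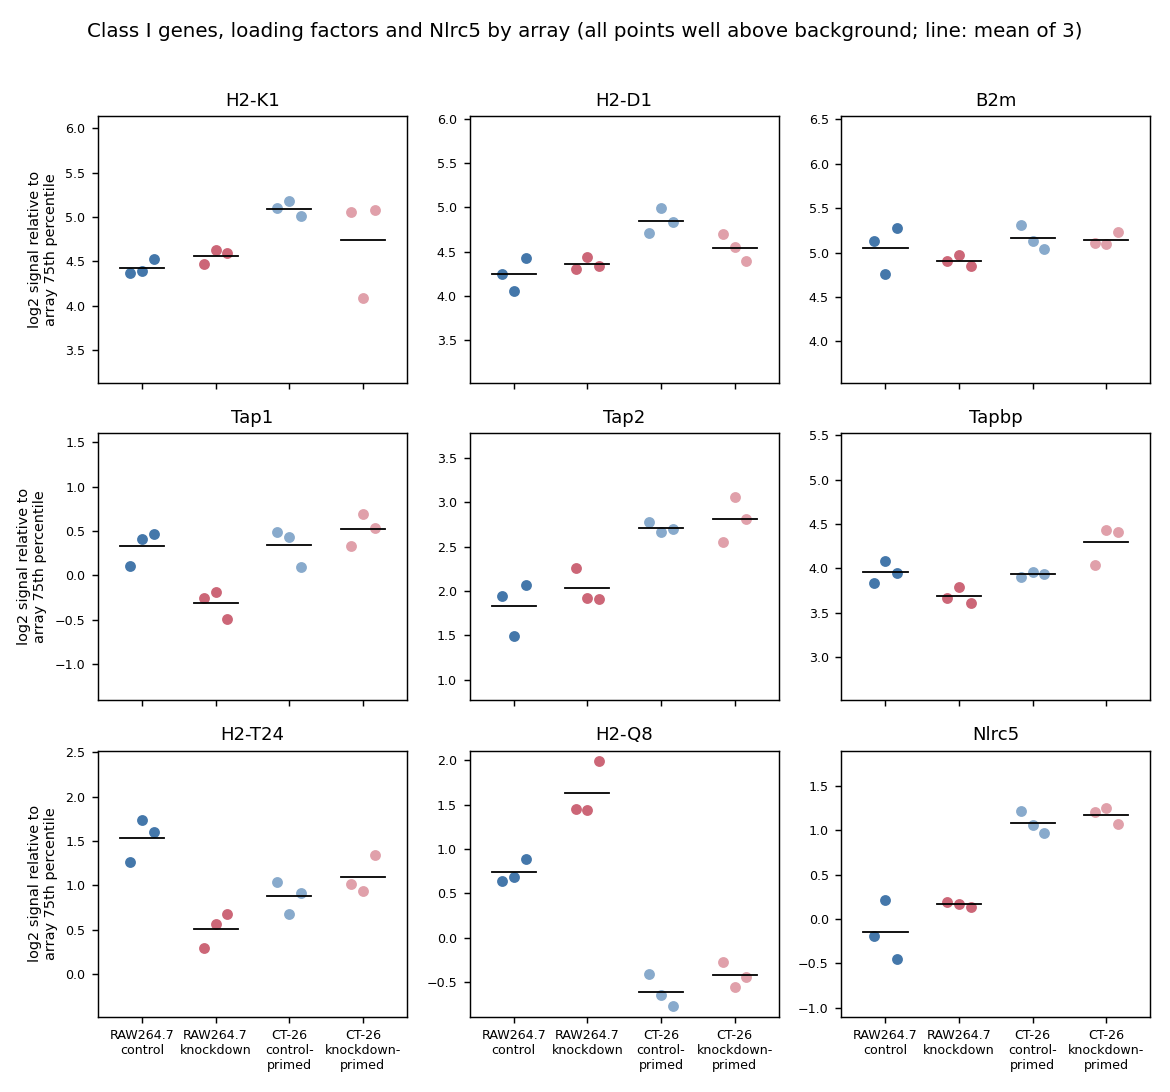
Level of 9 class I genes, loading factors and Nlrc5 on the 12 arrays (log2 signal relative to the array's 75th percentile), with 1 panel per gene, the group mean as a line and an axis of the same span in each panel. H2-K1, H2-D1, B2m, Tap2, Tapbp and Nlrc5 differ little between RAW264.7 groups, while H2-Q8 is higher and Tap1 and H2-T24 are lower after knockdown.

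The transactivators did not pass the test. Ciita stood at 3.66, 3.44 and 3.94 in control and at 3.17, 3.94 and 3.76 in knockdown arrays, a difference of -0.06 ± 0.25 (SE, 95% interval -0.62 to 0.51, adjusted p = 0.876) on its low-complexity probe. Nlrc5 differed by 0.31 ± 0.21 on its brighter probe and by -0.17 ± 0.19 on the other. Cd1d1, which presents lipids to natural killer T cells, differed by -0.34 (adjusted p = 0.194) on its brighter probe. Its dim probe differed by -0.18, with a 95% interval of -2.89 to 2.52, and by 2.23 within slide 2 (adjusted p = 0.0203). Among genes with an H2-K name but another function, H2-Ke6, now Hsd17b8, a steroid dehydrogenase, stood at 4.47, 5.05 and 4.39 in control and at 3.55, 3.6 and 3.44 in knockdown arrays. H2-Ke6 fell without overlap, by 1.11 ± 0.22 (SE, adjusted p = 0.0128), and was -0.86 within slide 2 (adjusted p = 0.0759). Its call was lost without knockdown replicate 2 (-1.14, adjusted p = 0.0503) or 3 (-1.06, adjusted p = 0.0662). H2-Ke2, now Pfdn6, a prefoldin subunit, stood at 4.24, 4.78 and 4.75 in control and at 4.18, 4.33 and 4.3 in knockdown arrays, which overlap (-0.32 ± 0.21, adjusted p = 0.264).

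**Figure D4:**
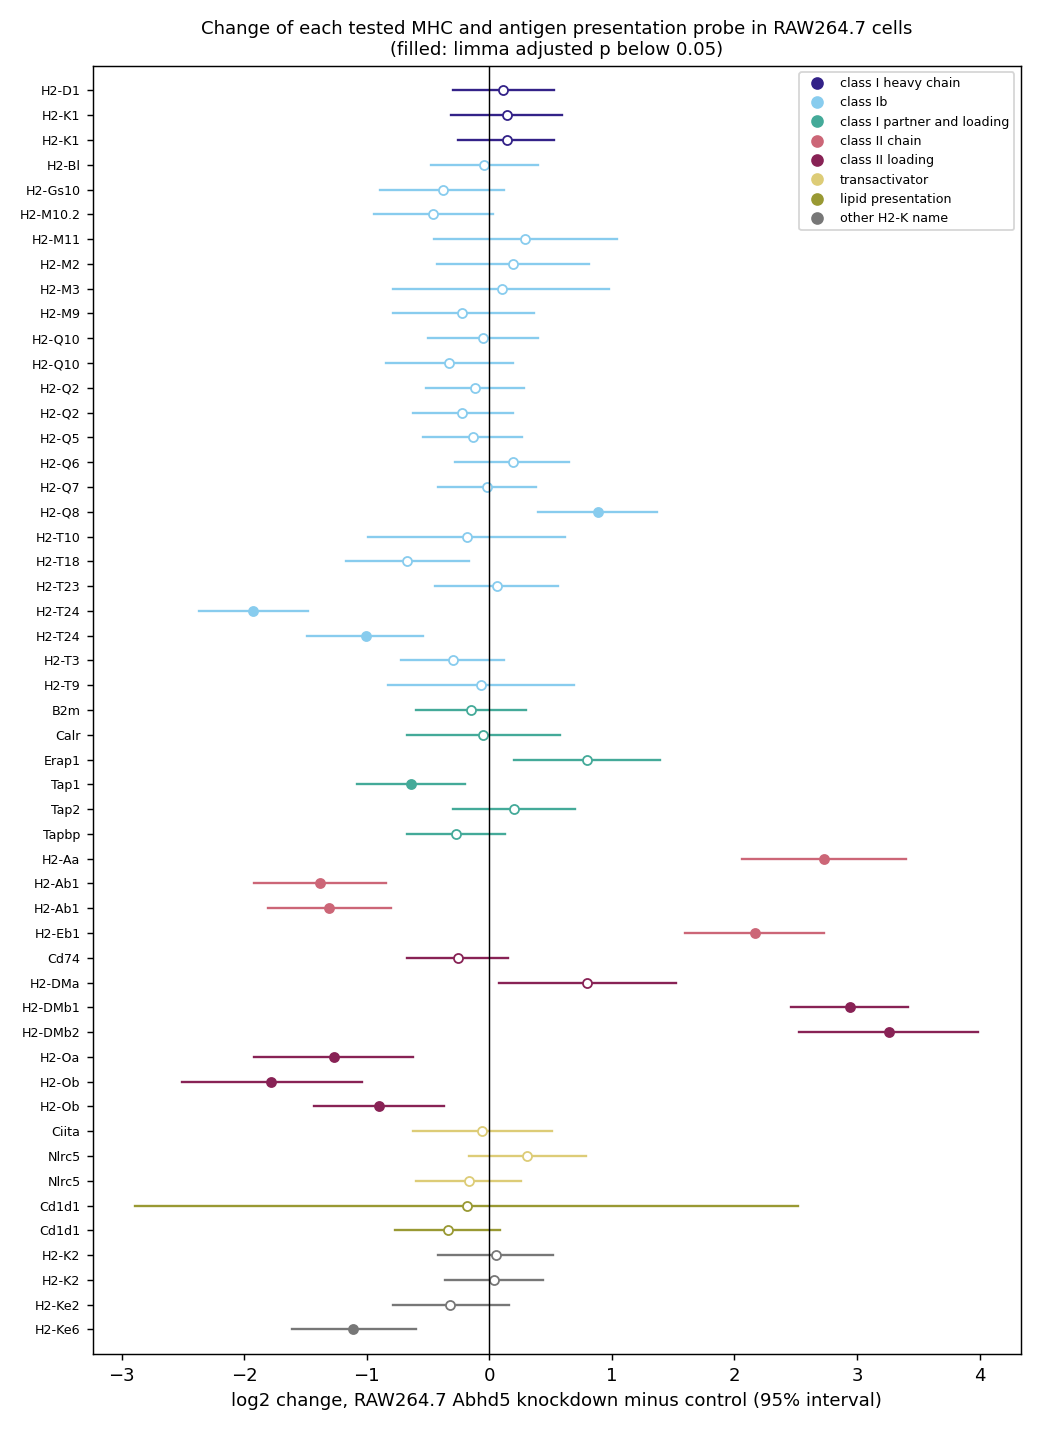
Change of each of the 51 tested probes in RAW264.7 cells (log2, knockdown minus control) with its 95% interval, coloured by role and filled where the adjusted p was below 0.05. All 4 class II chain probes and 5 of 7 class II loading probes are filled, in both directions, against 3 of 22 class Ib probes and 0 of 3 heavy chain probes. Of all probes tested on the array 21% were called. H2-Aa, H2-DMb1 and H2-DMb2 entered the test through the knockdown arrays, and the H2-Ab1 probes overlap in sequence. Of the class II genes only H2-Aa, H2-Eb1, H2-DMb1 and H2-DMb2 kept the call within slide 2.

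The other genes of these pathways, a list of 35 that act on antigen processing, class II transcription or interferon signalling, had 34 tested in RAW264.7 cells, 6 higher and 2 lower, where 7.92% and 13.1% of all probes were. Sppl2a, the protease that clears invariant chain fragments, rose by 1.17 ± 0.17 (SE, adjusted p = 0.00328). Jak2, a kinase of the interferon gamma receptor, rose by 1.28 ± 0.23 and Tapbpl, a tapasin relative, by 1.09 ± 0.20. The rises of Creb1 (1.02), Mr1 (0.89) and the phagosomal metal transporter Slc11a1 (1.02) passed as well. Irf8, a myeloid transcription factor, fell by 1.20 ± 0.21 (SE, adjusted p = 0.00704) and the immunoproteasome subunit Psmb8 by 0.60 ± 0.17 (SE, adjusted p = 0.0443). Beside Creb1, which rose, the listed factors that bind class II promoter elements were Rfx5, Rfxap, Rfxank, Nfya, Nfyb and Nfyc. These did not pass, with changes from -0.69 to 0.46.

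Markers of myeloid state moved beside the class II genes. Adgre1 rose by 2.86 ± 0.24 (SE, adjusted p = 0.000166), Lyz2 by 1.88 ± 0.40 and Cd53 by 0.84 ± 0.18, 3 of 12 macrophage markers, with 0 lower. Their summed level was 8.19 to 8.36 in control and 8.29 to 8.46 in knockdown arrays, which overlap, and without Itgam it was 7.85 to 7.99 and 8.02 to 8.16, which do not. Of 7 dendritic and B cell markers 5 were tested. Itgax rose by 3.20 ± 0.29 (SE, adjusted p = 0.000273) and Cd79a fell by 0.87 ± 0.27 (SE, adjusted p = 0.0497). Both were above background on 1 of 3 control arrays and entered the test through the knockdown arrays, so the size of each change is uncertain. Cd79a stood at -4.93 and -4.49 on the slide 1 control arrays, at -5.52 on the slide 2 control array and at -5.98 to -5.76 in knockdown arrays. Itgax stood at -6.3 on the slide 2 control array and at -3.77 to -2.79 in knockdown arrays. Changes of the markers and of the other pathway genes were not tested within slide 2 or with slide as a block. Of all probes in this comparison 7.92% were higher and 13.1% lower. The summed level of the 7 markers ranged from -0.87 to -0.29 in control and from -1.07 to -0.61 in knockdown, and Ms4a1 was above background on 0 of 6 arrays. The part of these markers in the class II changes was not tested, and in bulk RNA more cells of a state cannot be told apart from more RNA per cell.

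The second comparison asks whether CT-26 cells differ by the kind of macrophage that primed them. Few probes of the antigen presentation set passed the test. Of 51 probes tested 0 were higher and 1 was lower (limma, adjusted p below 0.05), against 2.8% and 3.89% of all 37401 probes tested, with 3 higher and 3 lower at an unadjusted p below 0.05. The median change was 0, against 0.077 over all probes. No member probe reached a 2-fold change, and the range was -0.92 to 0.57.

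The 1 call was H2-Q1, a class Ib gene of the Q region (chr17:35461859-35461918, mm9). It stood at -5.06, -5.26 and -5.07 in control-primed and at -6.2, -5.67 and -5.98 in knockdown-primed arrays. The groups did not overlap, and the knockdown-primed arrays were not well above background, so the fall of -0.82 ± 0.18 (SE, adjusted p = 0.0361) is given as at least 1.64-fold lower. It was 0 with normexp (adjusted p = 0.991) and lost its call on leaving out any control-primed array, or knockdown-primed replicate 1 or 3 (adjusted p up to 0.161).

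Class I heavy chains were well above background on all 6 CT-26 arrays, and none passed the test. H2-K1 was at 5.1, 5.18 and 5.01 in control-primed and at 5.06, 4.09 and 5.08 in knockdown-primed arrays, where replicate 2 alone was low. H2-D1 was at 4.71, 4.99 and 4.84 in control-primed and at 4.7, 4.55 and 4.39 in knockdown-primed arrays, without overlap. The differences were -0.35 ± 0.26 for H2-K1 (SE, adjusted p = 0.383) and -0.30 ± 0.16 for H2-D1 (SE, 95% interval -0.67 to 0.07, adjusted p = 0.253). The second H2-K1 probe differed by 0.18. B2m was at 5.31, 5.13 and 5.04 in control-primed and at 5.11, 5.1 and 5.23 in knockdown-primed arrays, a difference of -0.01 ± 0.15 (SE, 95% interval -0.37 to 0.34). Tap1 was at 0.49, 0.43 and 0.1 in control-primed and at 0.33, 0.69 and 0.54 in knockdown-primed arrays, a difference of 0.18 ± 0.18 (SE, adjusted p = 0.519).

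Several class II genes could not be tested in CT-26 cells. H2-Aa was not well above background on any of the 6 arrays. H2-Eb1 and H2-DMb2 were above it on 2 control-primed and 0 knockdown-primed arrays, and these 3 genes were not tested. H2-Ab1 was at -2.64, -2.79 and -2.67 in control-primed and at -2.2, -2.7 and -2.33 in knockdown-primed arrays, a difference of 0.29 ± 0.18 (SE, adjusted p = 0.301). Cd74 was at -3.0, -2.24 and -1.78 in control-primed and at -3.48, -2.98 and -3.12 in knockdown-primed arrays, which overlap at the lowest control-primed array. Its difference of -0.85 ± 0.29 (SE, 95% interval -1.52 to -0.18) had an adjusted p of 0.104, and of 0.0356 at -1.18 without control-primed replicate 1.

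H2-DMa was at -1.34, -1.02 and -1.64 in control-primed and at -2.14, -1.78 and -2.16 in knockdown-primed arrays, without overlap (-0.69 ± 0.20, adjusted p = 0.0735, and 0.0427 at -0.68 with normexp). H2-DMb1 was at -6.07, -5.79 and -5.98 in control-primed and at -5.9, -5.24 and -5.19 in knockdown-primed arrays, which overlap (0.50 ± 0.22, adjusted p = 0.164, and 0.0437 at 0.73 without knockdown-primed replicate 1). H2-Oa differed by 0.08 ± 0.17 and H2-Ob by 0.49 ± 0.19 (SE, adjusted p = 0.126). So of the 7 class II genes that changed in the macrophages, 3 were not tested and 4 did not pass in the cells they had primed. Ciita differed by -0.64 ± 0.33 (SE, adjusted p = 0.227), with knockdown-primed arrays at 2.01, 1.45 and 2.93. Among macrophage markers Cd68 fell by 0.83 ± 0.15 (SE, adjusted p = 0.0219) in the same comparison. Of the 12 macrophage markers 10 to 11 were above background in control-primed and 9 in knockdown-primed arrays, and of 10 tested 0 were higher and 1 lower. Their summed level was 5.79 to 5.93 and 5.84 to 6.23, mostly in Itgam, and without Itgam 3.24 to 3.35 and 2.97 to 3.37. The part of these markers in the Cd74 and H2-DMa values was not tested. Of 35 other pathway genes 34 were tested and 1 was called, Slc11a1, which rose by 1.89 ± 0.18 (SE, adjusted p = 0.00343).

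The change in RAW264.7 cells was then set against the change in CT-26 cells in 1 model, to ask where the macrophage line and the tumour line differ in response. Of 55 probes tested 5 had a more positive and 10 a more negative change in RAW264.7 cells, against 7.39% and 20% of all 40552 probes. The class II genes were called in both directions. H2-DMb1 (2.44 ± 0.31, adjusted p = 0.000524), H2-DMb2 (2.66 ± 0.70, adjusted p = 0.0195), H2-DMa (1.49 ± 0.41, adjusted p = 0.023) and H2-Eb1 (2.14 ± 0.40, adjusted p = 0.00465) had the more positive changes. On the CT-26 side H2-DMb2 and H2-Eb1 were above background on 2 of 6 arrays, so the size of their difference is uncertain. With normexp the difference was 0.91 for both H2-DMb1 and H2-DMb2 (adjusted p = 0.029 and 0.033) and 1.57 for H2-Eb1. H2-Aa passed too (adjusted p = 0.0398), but it was above background on 0 of 6 CT-26 arrays and 1 of 3 RAW264.7 control arrays, so its fitted 1.9 is no measured size. It lost the call with normexp, at 0.24 (adjusted p = 0.596), and on leaving out any 1 of 9 arrays (1.39 to 2.08, adjusted p = 0.0555 to 0.087). H2-DMa is the 1 gene of these that passed in neither line alone, with 0.80 in RAW264.7 and -0.69 in CT-26 cells. Its call was lost without RAW264.7 knockdown replicate 2 (1.42, adjusted p = 0.0515), control-primed replicate 2 (1.33, adjusted p = 0.0565) or knockdown-primed replicate 3 (1.42, adjusted p = 0.0539).

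H2-Ab1 (-1.66 ± 0.30), H2-Oa (-1.35 ± 0.35), H2-Ob (-1.39 ± 0.30), H2-T24 (-1.24 ± 0.27), Tap1 (-0.82 ± 0.25), H2-Ke6 (-1.47 ± 0.28) and H2-Ke2 (-0.88 ± 0.27) had the more negative changes in RAW264.7 cells. The H2-Ab1 value is that of the first probe, and the second, at -1.26, was not called. Tap1 and H2-Ke2 lost the call on leaving out most single arrays (adjusted p up to 0.0918 and 0.0781). H2-M10.3 also passed (adjusted p = 0.000409), entering the test through the CT-26 arrays. It stood at -4.68, -5.68 and -4.59 in RAW264.7 control and at -7.88, -8.9 and -8.45 in knockdown arrays, of which only control replicate 3 was well above background, so its fitted difference of -3.49 (-1.7 with normexp) is no measured size. In CT-26 cells H2-M10.3 was at -3.65, -3.83 and -3.57 in control-primed and at -3.44, -3.62 and -3.79 in knockdown-primed arrays. With slide as a term 8 probes of 7 genes were called, H2-DMb1, H2-Eb1, H2-Oa, H2-Ab1, H2-T24, H2-Ke6 and H2-M10.3, and H2-Aa (1.53, adjusted p = 0.204), H2-DMb2 (2.08, adjusted p = 0.134), H2-DMa (1.07, adjusted p = 0.165), H2-Ob (-0.98, adjusted p = 0.0827), Tap1 (-0.96, adjusted p = 0.0818) and H2-Ke2 (-1.04, adjusted p = 0.0798) were not.

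**Figure D5:**
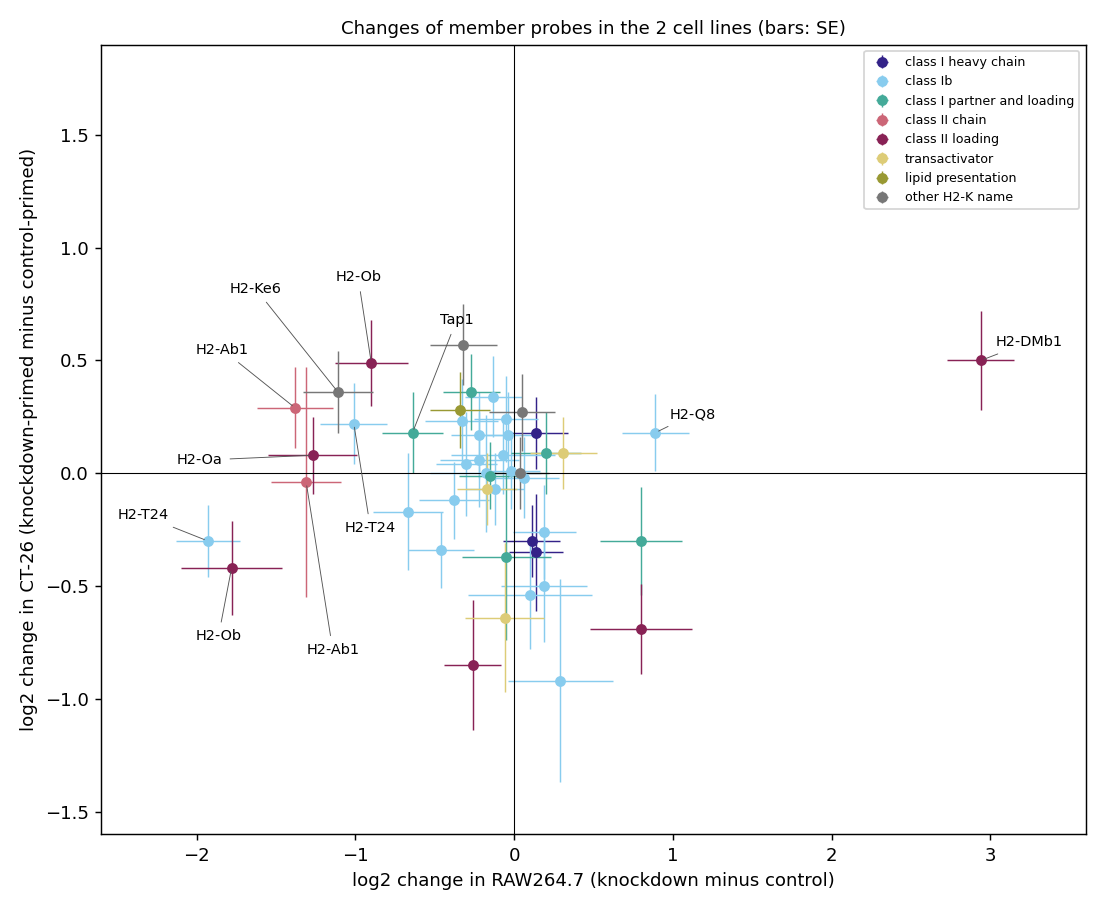
Change in RAW264.7 cells (x axis, log2) against change in CT-26 cells (y axis, log2) for the 47 probes tested in both lines, coloured by role, with SE bars and the genes called in RAW264.7 cells named. H2-DMb1 lies far to the right at 2.94, H2-Ab1, H2-Oa, H2-Ob and H2-T24 lie to the left, and on the y axis all probes stay between -0.92 and 0.57.

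The lines themselves were compared under control conditions. Slide 3 held all CT-26 arrays and no RAW264.7 array, so slide and cell line cannot be told apart here. Of 52 probes tested 18 were higher and 22 lower in RAW264.7 cells, against 41.4% and 29.9% of all 38181 probes. By role, the 3 tested class II chain probes were higher in RAW264.7 cells, as were 5 of 6 class II loading probes, with 0 lower. The 3 heavy chain probes and 14 of 26 class Ib probes were lower in RAW264.7 cells, with 0 and 4 higher.

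Cd74 differed by 7.34 ± 0.26 (SE, adjusted p = 1.82e-10), 162-fold, and H2-Oa by 5.93 ± 0.25 (SE, adjusted p = 7.27e-10). H2-Eb1 differed by 4.10 ± 0.28, or 2.9 with normexp, and H2-DMa by 1.34 ± 0.29. H2-Eb1 was not above background on every control-primed array, nor H2-DMb1 on every RAW264.7 control array, so the sizes for these genes are uncertain. H2-DMb1 differed by 0.17 ± 0.22 (SE, adjusted p = 0.491) with a 95% interval of -0.30 to 0.65, and by 0.55 with normexp (adjusted p = 0.0354). H2-Ab1 differed by 3.85 ± 0.21 on the first probe and by 6.47 ± 0.46 on the second, intervals of 3.39 to 4.30 and 5.48 to 7.47 that do not meet, although the probes differ by the 1 base printed above in the 51 they share. Both probes were above background on all control arrays of both lines.

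H2-K1 was lower in RAW264.7 cells by 0.67 ± 0.23 (SE, adjusted p = 0.0212), with the second probe at -0.76, and H2-D1 was lower by 0.60 ± 0.16 (SE, adjusted p = 0.0051). Under median centring these were -0.48 and -0.41 and no longer passed (adjusted p = 0.0965 and 0.0694). The H2-K1 call was also lost without RAW264.7 control replicate 1 (-0.64, adjusted p = 0.0537) or control-primed replicate 2 (-0.63, adjusted p = 0.0609). B2m differed by -0.10 ± 0.17 (SE, adjusted p = 0.588), and by -0.73 under quantile normalisation (adjusted p = 0.00495). Among class Ib genes, H2-T10 differed by -1.73, H2-T9 by -1.28 and H2-M10.2 by -2.09. H2-M10.1 was not well above background in RAW264.7 cells and was at least 9.84-fold higher in CT-26 cells. H2-Q8, at 1.34 ± 0.19, and H2-T24, at 0.65 ± 0.19, were higher in RAW264.7 cells, the latter not past the threshold under quantile normalisation (0.41, adjusted p = 0.0578). The Nlrc5 probes disagreed, at -1.22 ± 0.18 and 1.08 ± 0.16, so no direction is given for that gene. Ciita differed by 0.91 ± 0.33 (SE, adjusted p = 0.0251) on its low-complexity probe.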

How the data were processed

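Signals were read from the deposited scanner files, which hold each spot's intensity on a linear scale, corrected for background within the array by Agilent Feature Extraction 10.7.3.1, per the file headers and the submitters' processing notes. The deposited flag for a spot well above background was used as given, per the file headers. Probe coordinates are mm9, per the file headers, and exon annotation was not used here. Control spots (3671 per array) and 172 to 272 outlier spots per array were left out, and 0 were saturated. The log2 signal minus the array's 75th percentile was computed, and spots of a probe were averaged. In the authors' deposited table the RAW264.7 columns held log2 values minus a constant per array (medians -4.02 to -3.53). The method was read from the values, and centring beyond that constant is unknown. Its CT-26 columns, deposited as intensity on a linear scale (medians 132 to 276), were not used: 5 of the 6 matched another replicate of the same group. The RAW264.7 columns served as an alternative.

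Each comparison was fitted with limma 3.58.1 (R 4.3.3, lmFit and eBayes, two-sided, Benjamini-Hochberg over all probes tested, threshold 0.05) on probes that every one of the 3 arrays in at least 1 compared group detected well above background. The RAW264.7 and CT-26 fits used 6 arrays each, and the difference and the line comparison all 12. A fold against a group below background is set against the dimmest detected signal of each array and written "at least". The code was tested on simulated data. The members, roles and gene lists were chosen with earlier results of these data known. Levels on every array are given for genes whose brightest probe passed in the RAW264.7 comparison, the CT-26 comparison or their difference, and for B2m, H2-K1, H2-D1, Tap1, Cd74 and H2-Aa. Up to 6 other pathway genes with the smallest p were named per comparison. All further genes named, among them Ciita, Nlrc5, Erap1, Cd1d1, Mr1, Psmb8 and the promoter-binding factors, were chosen after their values were seen. Some items are not reported here. Gene sequences and current names come from RefSeq (GRCm38.p6).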

Additional observations from a re-analysis of the deposited data

Results flagged for a closer look

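By probe, 15 of 55 members were called in the limma test of the difference (27.3%, against 27.4% of all probes), so the share was that of the array. The change in RAW264.7 cells differed from that in CT-26 cells, by this test, for 13 genes by their brightest probe. It was more positive in RAW264.7 cells for H2-DMb2 (2.66), H2-DMb1 (2.44), H2-Eb1 (2.14) and H2-DMa (1.49). It was more negative for H2-Ab1 (-1.66), H2-Ke6 (-1.47), H2-Ob (-1.39), H2-Oa (-1.35), H2-T24 (-1.24), H2-Ke2 (-0.88) and Tap1 (-0.82). H2-Aa (1.9) and H2-M10.3 (-3.49) passed as well, but H2-Aa was above background on 0 of 6 CT-26 arrays and H2-M10.3 on 1 of 6 RAW264.7 arrays, so these fitted values are no measured sizes. The sizes for H2-DMb1, H2-DMb2 and H2-Eb1 are uncertain. H2-DMb1 and H2-DMb2 were not above background on most RAW264.7 control arrays, nor H2-DMb2 and H2-Eb1 on most CT-26 arrays. With normexp these 3 differences were 0.91, 0.91 and 1.57. With slide as a block H2-Aa, H2-DMb2, H2-DMa, H2-Ob, Tap1 and H2-Ke2 lost the call.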

How the results depend on the processing

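In RAW264.7 cells 14 member probes were called (27.5% of those tested, against 21% of all probes). With no filter on dim probes 9 were called, 8 of them among the 14 (13.4%, against 6.04%). With the filter on every array compared 12 were called, 11 of them among the 14 (26.1%, against 29.1%). With slide as a block 5 were called, all among the 14 (9.8%, against 4.17%). Within slide 2, 7 were called, 5 of them among the 14, the others being the dim Cd1d1 probe and H2-M10.3 (11.9%, against 4.78%). Leaving out 1 array gave 8 to 15, the lowest without knockdown replicates 2 (8) and 3 (9). These were 15.7 to 29.4% of the members tested, against 5.87 to 27.7% of all probes. H2-Q8, H2-T24, Tap1, H2-Oa, H2-Ob and H2-Ke6 each lost the call on leaving out at least 1 array, while H2-Aa, H2-Eb1, H2-DMb1, H2-DMb2 and H2-Ab1 kept it on leaving out any 1. The 1 call in CT-26 cells became 0 with no filter, 0 with the filter on every array and 0 with the replicate block. In these settings 0.0468%, 9% and 3.86% of all probes were called. On leaving out 1 array it became 0 to 3 (3 without knockdown-primed replicate 1), or 0 to 5.88%, against 0.0946 to 9.41% of all probes. The 15 calls of the difference (27.3%, against 27.4% of all probes) became 8 with slide as a block (14.5%, against 7.65%). On leaving out 1 array they became 11 to 17 (19.3 to 30.9%, against 13.5 to 34.4%). The 40 calls of the line comparison (76.9%, against 71.3%) became 34 to 39 on leaving out 1 array (61.8 to 75%, against 62.1 to 71.3%). Same-numbered arrays of a pair of groups deviated from their group means with correlations of -0.18 to 0.01. Whether they shared a culture was not tested. The replicate numbers of most deposited CT-26 columns did not match those of the scanner files, and the RAW264.7 control arrays lay on different slides. With the replicate block the other counts were 13 in RAW264.7 cells (25.5%, against 17.7%), 14 for the difference (25.5%, against 23.3%) and 39 for the lines (75%, against 70.3%). It ended the calls of Tap1 in RAW264.7 cells (adjusted p = 0.073), H2-Q1 in CT-26 cells (adjusted p = 0.068) and H2-Aa in the difference (adjusted p = 0.05). H2-Q1 between the lines reversed with normexp, at 0.04 (adjusted p = 0.885). Scaling moved the split of all probes in RAW264.7 cells: 2938 higher and 4852 lower as reported, 3577 and 2008 by median centring, 3218 and 2484 by quantile, 2407 and 8026 by normexp, with median changes of -0.285, -0.066, -0.072 and -0.367. Median centring ended the calls of H2-Oa, H2-Ob and Tap1 there. The cause of these changes was not tested. Signal over background limits H2-Aa, H2-DMb1 and H2-DMb2, which were above background on 1 of 3 RAW264.7 control arrays.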
